A study of Mus musculus with 12 samples.

Results

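Potassium channel genes were taken as every protein-coding gene whose symbol starts with Kcn, which gave 94 of the 54532 genes of the count table. By the letters that follow Kcn they fall into 21 subfamilies, from Kcna to Kcnv. They were measured by RNA sequencing of the ventral hippocampus of mice of genotype WT, in 12 libraries and 4 groups of 3. Control mice had no treatment by their labels, CSDS mice had been exposed to CSDS, SSDS-GFP mice had been given AAV8-eGFP and exposed to SSDS, and SSDS-shACOT12 mice had a knockdown of the ACOT12 gene in the liver and were exposed to SSDS. The labels do not spell out CSDS or SSDS, give no age or strain, and do not state that each library of a group is another animal. The p-values therefore cover the spread among these libraries, which may be technical. SSDS-GFP differs from Control by both the virus and SSDS, so their parts in that contrast cannot be told apart. SSDS-shACOT12 differs from Control by SSDS and by the knockdown, with any virus that delivered it. These parts cannot be told apart either. The knockdown was in the liver, not in the tissue sequenced.

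Potassium channels let potassium leave the cell, which sets the resting potential, ends the action potential and spaces successive spikes. Pore-forming subunits fall into voltage-gated (Kv), calcium- or sodium-activated, inwardly rectifying and tandem-pore classes, and auxiliary subunits change the traffic and gating of the pores they bind. In the hippocampus, Shaker-type channels of the Kcna subfamily sit on axons and terminals, Kcnd channels with their Kcnip partners carry the A-type current of dendrites, Kcnq channels carry the M-current, and Kcnj channels carry the current opened by inhibitory G-protein-coupled receptors. Loss of Kcna1 is a known cause of episodic ataxia and of seizures that start in the hippocampus.

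Library totals ran from 14656714 to 17694570 counts. The 94 genes together took 0.431% to 0.554% of all counts, with 0.495%, 0.514% and 0.554% in Control and 0.431% to 0.525% in the other 9 libraries. The labelled tissue was checked against its markers: Prox1, a transcription factor of dentate granule cells, lay at 74.0 to 171 counts per 1000000 of the scaled library (CPM), and none of the 10 granule cell markers checked was at 0 in any library. SSDS-GFP 3, SSDS-shACOT12 1 and SSDS-shACOT12 3 stood apart from the other 9 libraries when log2 CPM was reduced to principal components, with first-component scores of 35.7, 37.4 and 63.1 against at most 5.82 elsewhere. Genes of the mitochondrial genome took 3.23% and 4.31% of counts in SSDS-shACOT12 1 and SSDS-shACOT12 3, and 6.31% to 9.24% elsewhere. The part of dissection or RNA make-up in the Kcn differences was not tested. The median SD of log2 CPM over the tested Kcn genes was 0.19 for Control and 0.17 for CSDS, but 0.35 for SSDS-GFP and 0.34 for SSDS-shACOT12.

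Of the 94 genes, 75 (79.8%) had enough counts to be tested, against 65.3% of all protein-coding genes. The other 19 have no test in the main fit. Kcnj1, Kcnk15 and Kcnk16 had 0 counts in every library. Kcna7, Kcna10, Kcne1, Kcne2, Kcne3, Kcnh8, Kcnj5, Kcnj13, Kcnj15, Kcnk5, Kcnk7, Kcnk18, Kcnmb3, Kcnn4, Kcnq1 and Kcnv2 had some, up to 41 in a single library (Kcne2 in Control 1). A gene that passed the count filter through the group where it is high had a better chance to differ, so counts over the 75 are not counts over all 94.

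Levels of different genes were compared as FPKM, the deposited value scaled by gene length and library size, averaged over the 12 libraries. Of the 94 genes, 26 averaged over 10 FPKM and 30 under 1. The auxiliary subunits held 34.97% of the summed Kcn FPKM, the Kv pore subunits 28.58% and the inward rectifiers 17.04%. The tandem-pore channels held 7.91%, the electrically silent Kv subunits 7.59% and the calcium- or sodium-activated channels 3.90%. Kcnu1 was grouped with this last class without regard to what opens it. The highest gene was Kcnab2, a cytoplasmic beta subunit of Shaker-type channels, at 138 FPKM, followed by Kcnip2, a calcium-binding partner of Kcnd channels, at 67.4 FPKM, and Kcnj4, an inward rectifier, at 43.4 FPKM. The auxiliary class thus held the largest share of summed FPKM with a minority of the genes, 17 of 94. Within it, Kcnab held 20.1% and Kcnip 13.84% of the summed Kcn FPKM, and Kcne, Kcnmb and Kcnrg 0.4449%, 0.54% and 0.05035%.

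Among the pore-forming Kv subfamilies, the leading member of Kcna was Kcna2 at 10.7 FPKM, of Kcnd the A-type channel Kcnd2 at 24.7 and of Kcnh Kcnh3 at 16.0. The silent subunits, which make no channel alone and join Kcnb pores, were led by Kcnf1 at 13.2 FPKM, Kcng2 at 11.7, Kcns2 at 7.02 and Kcnv1 at 10.0. The tandem-pore leak channels were led by Kcnk1 at 34.5 FPKM. Kcnma1, the large-conductance calcium-activated channel, had 11.7 FPKM, the small-conductance Kcnn2 5.37, the sodium-activated Kcnt2 4.10 and Kcnu1, which is best known from sperm, 0.999. The remaining auxiliary families were low, with 3.05 FPKM for Kcnmb4, a beta subunit of Kcnma1, 2.88 for Kcne1l and 0.412 for Kcnrg, which encodes no pore.

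**Figure D1:**
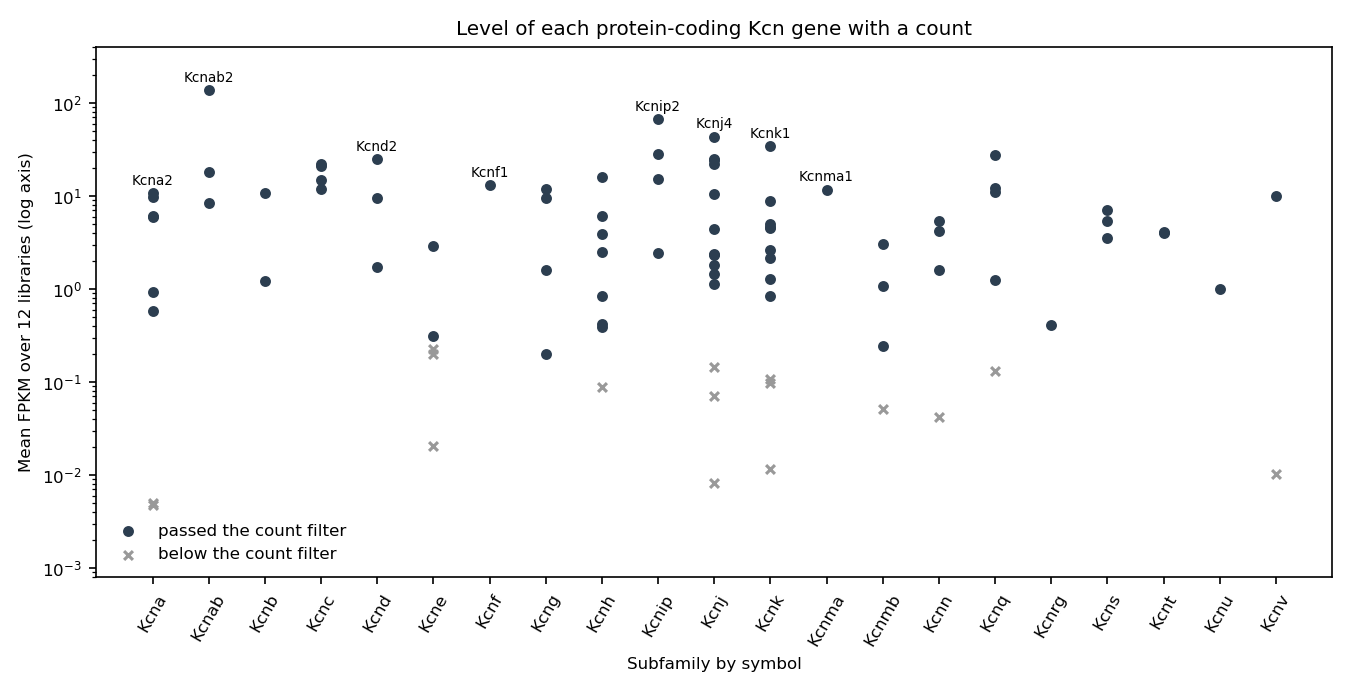
Mean FPKM over 12 libraries (log axis) of each protein-coding Kcn gene with a count, by subfamily; circles are the 75 genes that passed the count filter and crosses the genes with counts that did not, with 8 of the leading members named. Kcnab2, at 138 FPKM, is the highest, and the genes below the filter lie at or under 0.226 FPKM.

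Kcna1 was the member with the clearest pattern, and it was named with earlier results of these data known. The gene lies at chr6:126640397-126646384 on the minus strand (mm10, as in the deposited table; ENSMUSG00000047976) and encodes a Shaker-type alpha subunit of axons and terminals. Its level was 40.8, 43.4 and 63.3 CPM for Control, 25.7, 16.0 and 23.8 for CSDS, 20.1, 27.6 and 16.9 for SSDS-GFP and 28.5, 20.2 and 19.6 for SSDS-shACOT12. Every Control library lay above all 9 others, and the other 3 groups overlapped one another. The reads behind these values were 615, 669 and 1065 counts in Control and 276 to 461 elsewhere.

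The group means of Kcna1 were 49.2 ± 12.3 CPM for Control, 21.8 ± 5.14 for CSDS, 21.5 ± 5.47 for SSDS-GFP and 22.8 ± 4.98 for SSDS-shACOT12 (SD, n = 3 each). Against the same 3 Control libraries, the log2 difference was -1.17 ± 0.24 in CSDS (SE, edgeR adjusted p = 0.849), -1.19 ± 0.24 in SSDS-GFP (edgeR adjusted p = 0.0907) and -1.11 ± 0.24 in SSDS-shACOT12 (edgeR adjusted p = 0.0531). None passed the threshold of 0.05. These 3 contrasts share their Control libraries, so they are not 3 separate observations. SSDS-shACOT12 and SSDS-GFP differed by 0.08 ± 0.24 (edgeR adjusted p = 0.937), a difference smaller than its standard error.

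The call on Kcna1 turned on the test. The DESeq2 Wald test gave it adjusted p = 0.0209 for CSDS, 0.00122 for SSDS-GFP and 0.00169 for SSDS-shACOT12, and the DESeq2 likelihood ratio test over the 4 groups gave 8.95e-05, against 0.148 with edgeR. Without the 3 libraries that stood apart, an alternative chosen after seeing the data, edgeR called it with adjusted p = 0.0390, 0.0432 and 0.0294 in the same order (0.167%, 1.21% and 4.1% of all genes called). That leaves 2 SSDS-GFP libraries and 1 SSDS-shACOT12 library, which is assumed to vary as the other groups do, so the value for SSDS-shACOT12 compares a single library with Control. Over all alternatives tried, the adjusted p of Kcna1 ran from 3.48e-06 to 1 in CSDS, from 6.49e-07 to 0.356 in SSDS-GFP and from 2.94e-06 to 0.235 in SSDS-shACOT12. The difference itself stayed between -1.41 and -0.89 on the log2 scale in all 3 contrasts and all alternatives.

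Some markers of other cell populations also differed between the same groups. The 10 markers of dentate granule cells summed to 872 to 1098 CPM for Control and 360.3 to 797 for the other 9 libraries, with no overlap. Below Control lay 9 of 10 in CSDS, 9 of 10 in SSDS-GFP and 8 of 10 in SSDS-shACOT12, 4, 4 and 6 of them at an unadjusted p under 0.05. Of all genes, 3.01%, 6.23% and 10.7% were lower at that p. In SSDS-shACOT12, edgeR called 1 of the 10 markers, Stxbp6 (-1.07 ± 0.16, SE, edgeR adjusted p = 0.0302), against 0.0828% of all genes. The 9 markers of choroid plexus summed to 563, 174 and 43.2 CPM in Control and to 17.8 to 45.9 elsewhere, so that Control 3 lay inside the range of the other groups. Slc4a5 was at 0 in Control 3, and Otx2, Folr1 and Slc4a5 in some libraries outside Control. Of the 5 markers of fast-spiking interneurons, Pvalb had 32.5 to 44.3 CPM in Control and 45.4 to 64.8 elsewhere, without overlap. Tac1 had 4.64 to 5.39 and 5.88 to 15.7, also without overlap. Over the other 9 libraries, Syt2, Cplx1 and Gad1 overlapped Control. The 5 together summed to 720 to 816 CPM in Control and 738 to 1004 elsewhere, with overlap. Of all genes, 20.3%, 23.9% and 25.5% did not overlap Control in CSDS, SSDS-GFP and SSDS-shACOT12. The part of these markers in the Kcna1 difference was not tested. In bulk tissue, fewer cells of a type and less RNA per cell cannot be told apart.

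The rest of the Kcna subfamily did not share 1 direction. Kcna2, the most abundant of the 6 tested members, had 139, 136 and 153 CPM for Control, 142, 118 and 148 for CSDS, 108, 134 and 112 for SSDS-GFP and 112, 125 and 116 for SSDS-shACOT12. Its SSDS libraries lay below Control and its CSDS libraries overlapped Control, at log2 differences of -0.07, -0.27 and -0.27. Kcna4, an A-type Shaker subunit, had 36.3, 32.6 and 45.8 CPM for Control, 27.9, 39.7 and 27.9 for CSDS, 25.1, 26.1 and 18.1 for SSDS-GFP and 23.8, 23.7 and 26.4 for SSDS-shACOT12. Again both SSDS groups lay below every Control library, at -0.73 ± 0.19 (SE, edgeR adjusted p = 0.130) and -0.63 ± 0.19 (edgeR adjusted p = 0.0818).

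Kcna6, a delayed rectifier, went the other way. It had 46.8, 46.9 and 44.6 CPM for Control, 58.6, 52.9 and 54.6 for CSDS, 63.4, 56.2 and 79.6 for SSDS-GFP and 56.1, 69.0 and 68.6 for SSDS-shACOT12, so that all 9 libraries lay above Control. The log2 differences were 0.26 ± 0.14 (SE, edgeR adjusted p = 0.867), 0.53 ± 0.14 (edgeR adjusted p = 0.130) and 0.49 ± 0.14 (edgeR adjusted p = 0.0790). Kcna6 lies on the same strand of chromosome 6 as Kcna1, at chr6:126708329-126740674, and Kcna5 lies on their other side at chr6:126532551-126535412. Kcna5 had 1.37 to 4.28 CPM in Control and 0.495 to 2.25 elsewhere, and Kcna3 1.23 to 2.74 and 0.929 to 2.60. In SSDS-shACOT12, Kcna5 lay below Control without overlap (11.6% of all genes), at -1.28, the lowest log2 difference of the subfamily there. The summed FPKM of all Kcna genes was 39.5 ± 4.67 for Control and 33.0 ± 1.60 for CSDS (SD, n = 3). It was 31.3 ± 1.84 for SSDS-GFP and 31.6 ± 1.09 for SSDS-shACOT12. Every Control library lay above the other 9.

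**Figure D2:**
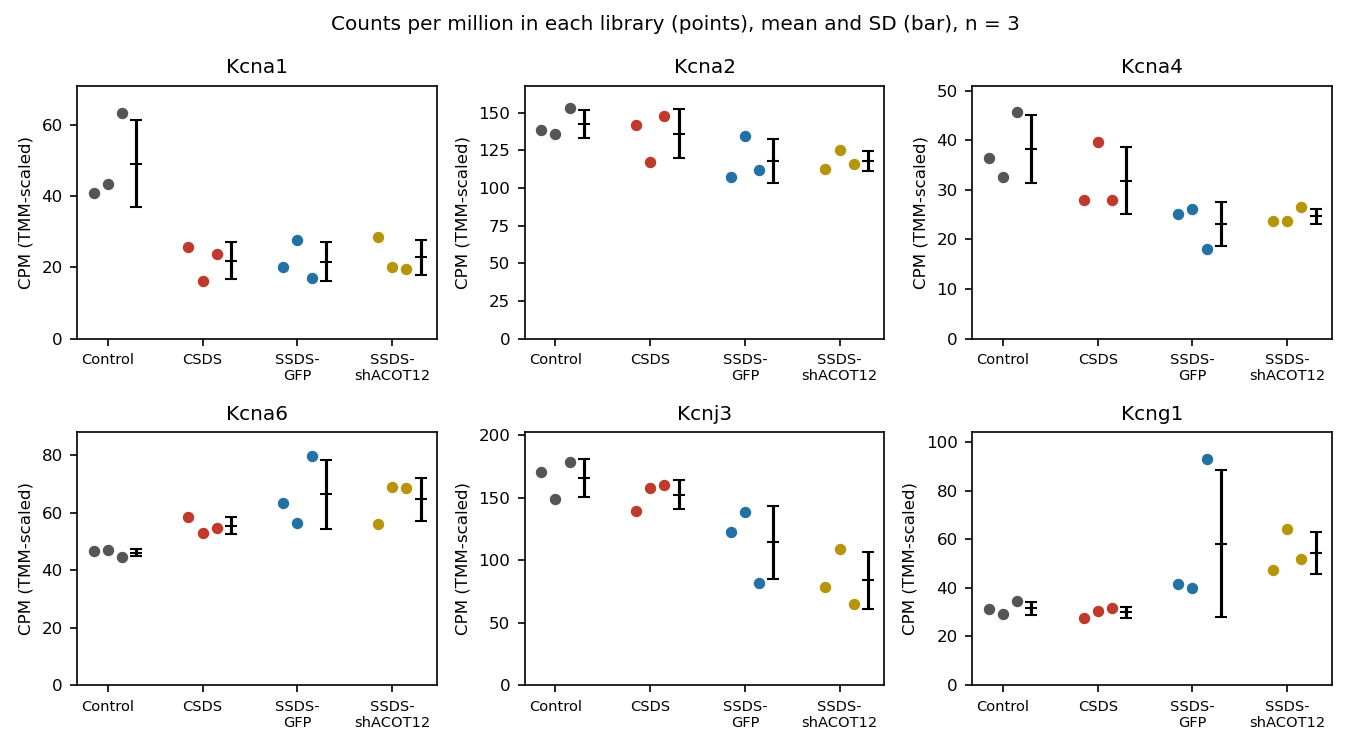
CPM of 6 Kcn genes in each of the 12 libraries (points), with the mean and SD of each group (bar, n = 3); each vertical axis starts at 0. Kcna1 lies above 40 CPM in Control and below 29 elsewhere, Kcna6 is lowest in Control, and SSDS-GFP 3 stands out in Kcng1.

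The RefSeq promoter table (GRCm38.p6) held an entry for 69 of the 94 genes, with Kcna1 and Kcng1 not among them. Windows are shown for 3 members that lay on 1 side of Control in both SSDS groups without overlap. The 250 bases before the start site are printed for Kcna4 and Kcnj3, which were lower than Control in both SSDS groups, and for Kcna6, which was higher, 5′ to 3′ on the gene's strand with each CpG in capitals. They lie at chr2:107290339-107290588 on the plus strand (Kcna4), chr2:55435720-55435969 on the plus strand (Kcnj3) and chr6:126740675-126740924 on the minus strand (Kcna6).
Kcna4: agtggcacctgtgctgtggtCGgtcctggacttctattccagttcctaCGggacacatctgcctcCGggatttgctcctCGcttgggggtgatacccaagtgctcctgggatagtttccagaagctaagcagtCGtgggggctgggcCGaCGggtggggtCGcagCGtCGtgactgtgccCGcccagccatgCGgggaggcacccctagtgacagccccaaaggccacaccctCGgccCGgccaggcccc
Kcnj3: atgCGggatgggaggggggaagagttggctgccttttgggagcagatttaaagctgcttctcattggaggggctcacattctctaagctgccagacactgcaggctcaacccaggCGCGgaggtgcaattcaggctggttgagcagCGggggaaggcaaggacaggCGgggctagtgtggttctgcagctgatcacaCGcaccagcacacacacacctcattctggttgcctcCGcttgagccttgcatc
Kcna6: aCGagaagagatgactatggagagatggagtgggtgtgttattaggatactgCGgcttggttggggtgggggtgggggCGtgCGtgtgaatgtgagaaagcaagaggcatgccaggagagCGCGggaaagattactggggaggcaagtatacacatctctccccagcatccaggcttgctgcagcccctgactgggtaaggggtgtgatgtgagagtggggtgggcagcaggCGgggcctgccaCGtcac
The bases that follow the Kcna4 window were not found in a GENCODE transcript of that gene, so its start site rests on RefSeq alone, while those of Kcnj3 and Kcna6 were found. The Kcna4 window holds 14 CpG at 65.2% GC, the Kcnj3 window 7 at 58.4% and the Kcna6 window 8 at 58.8%. The median over Kcn windows was 7 CpG at 58.6% GC and over all windows 6 at 52.4%. Searched on both strands, the letters TATAAA occurred in 3.19% of Kcn windows and 12.4% of all windows, and GGGCGG in 44.7% and 32.7%. None of the 3 printed windows holds TATAAA, and only that of Kcna4 holds GGGCGG. A match of letters is a description of the window and not a shown binding site.

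The contrast of CSDS with Control asks which channel genes differ after CSDS. Besides Kcna1, the lower members included Kcnj6, Kcnh1 and Kcns2, and the higher ones the silent subunit Kcns3 and the leak channel Kcnk3. edgeR called 0 of the 75 tested members, as it called 0 of all 16915 genes (0%). At an unadjusted p under 0.05 there were 1 higher member (2.86% of all genes) and 5 lower (3.01%), 8% of the 75 against 5.87% of all genes. The median log2 difference was -0.03 over the members and 0.00 over all genes. Kcna1 alone was called by the DESeq2 test (0.0355% of all genes), by edgeR with no filter (0.403%) and by edgeR on the 6 libraries alone (0.515%). Limma-trend on log2 FPKM called 0 members and 0% of all genes.

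Of the 75, 9 lay higher (10.2% of all genes) and 11 lower (10.1%) in CSDS without overlap, 26.7% of the members against 20.3% of all genes. Kcnj6, a subunit of the G-protein-gated inward rectifier, had 21.5, 19.9 and 31.2 CPM in Control and 13.8, 14.6 and 16.4 in CSDS, a log2 difference of -0.70 ± 0.27 (SE, edgeR adjusted p = 0.849). Kcnh1, an ether-a-go-go channel, had 49.1, 46.2 and 54.5 CPM and 37.5, 39.4 and 39.2, or -0.37. In both genes, each CSDS library lay below each Control library.

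The silent subunit Kcns2 had 44.8, 43.0 and 62.1 CPM in Control and 32.8, 36.5 and 37.1 in CSDS (-0.50 on the log2 scale), and the M-current subunit Kcnq3 246, 219 and 298 and 166, 195 and 178 (-0.50). In the other direction, Kcns3, a silent subunit found in fast-spiking interneurons, had 9.42, 10.1 and 8.92 CPM in Control and 13.3, 13.7 and 12.1 in CSDS (0.46 ± 0.17, SE, edgeR adjusted p = 0.849). Kcnk3, an acid-sensitive leak channel, had 7.69, 9.02 and 7.49 and 9.71, 9.93 and 15 (0.52). Without CSDS 3 the difference of Kcnk3 was 0.29, and without Control 3 that of Kcns2 was -0.30 and that of Kcnj6 -0.46. None of these 4 genes overlapped between the groups, and none passed the adjusted test. Of the 5 markers of fast-spiking interneurons, 3 (Pvalb, Syt2 and Tac1) were higher in CSDS at an unadjusted p under 0.05, and Cplx1 and Gad1 were at 0.04 and 0.07. All 5 markers of blood were higher at that threshold, as were 2.86% of all genes. The blood markers summed to 332 to 386 CPM in CSDS against 87.8 to 120.1 in Control. The part of these interneuron and blood markers in the Kcn differences was not tested.

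SSDS-GFP against Control asks what differs in mice with the control virus after SSDS. Beside Kcna1 and Kcna4, the lower members included Kcnk2, Kcnj3 and Kcnq3, and the higher ones Kcna6 and the silent subunit Kcng1. edgeR called 0 of the 75, against 16 of all genes (0.0946%). At an unadjusted p under 0.05 there were 5 higher members (8.92% of all genes) and 8 lower (6.23%), 17.3% of the 75 against 15.2% of all genes, and the median difference was -0.01 against 0.01. Without overlap, 2 lay higher (12.5% of all genes) and 14 lower (11.4%), 21.3% of the members against 23.9% of all genes. The DESeq2 test called 4 members (3.61% of all genes): Kcna1 and Kcna4 lower, Kcna6 and Kcng1 higher. Limma-trend called 0 (0.0709% of all genes). edgeR called Kcna1 alone without SSDS-shACOT12 2 (0.642%), and 7 of 91 members with no filter (1.85%). The 7 include Kcne2, which is outside the 75.

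Kcng1, a silent subunit that joins Kcnb pores, had 31.1, 29.2 and 34.6 CPM for Control, 27.6, 30.5 and 31.7 for CSDS, 41.4, 39.8 and 93.0 for SSDS-GFP and 47.4, 64.1 and 51.8 for SSDS-shACOT12. Both SSDS groups lay above Control and CSDS, and SSDS-GFP 3 was the highest library. The difference from Control was 0.88 ± 0.27 in SSDS-GFP (SE, edgeR adjusted p = 0.158), and 0.36 without SSDS-GFP 3. The same library was high in Kcnf1, another silent subunit, at 107 CPM against 67.4 and 47.3 in the other SSDS-GFP libraries and 44.0 to 53.9 in Control.

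Kcnk2, a mechanically and lipid-gated leak channel, had 48.9, 47.5 and 68.0 CPM in Control and 39.9, 38.9 and 32.6 in SSDS-GFP (-0.56 ± 0.19, SE, edgeR adjusted p = 0.196). Kcnq3 had 184, 203 and 109.9 CPM in SSDS-GFP (-0.62). Here too the groups did not overlap, while SSDS-GFP 3 was the lowest SSDS-GFP library in both genes. Without Control 3 the difference of Kcnk2 was -0.37, and without SSDS-GFP 3 that of Kcnq3 was -0.39 and that of Kcnj3 -0.34.

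SSDS-shACOT12 against Control asks what differs in mice with liver knockdown of ACOT12 and SSDS together. It had the most members at a small unadjusted p: 7 higher (13.6% of all genes) and 15 lower (10.7%), 29.3% of the 75 against 24.2% of all genes. The lower members included the G-protein-gated inward rectifier Kcnj3, the M-current subunit Kcnq3, the A-type channel Kcnd2, the ether-a-go-go-related Kcnh7 and the sodium-activated Kcnt2, and the higher ones included Kcna6, Kcnip3, Kcng1, Kcnh2, Kcnh4 and Kcnn1. edgeR called 0 of the 75, against 14 of all genes (0.0828%), with a smallest adjusted p of 0.0531 (Kcnj3 and Kcna1). The median difference was 0.03 over the members and 0.01 over all genes. Without overlap, 11 lay higher (14% of all genes) and 17 lower (11.6%), 37.3% of the members against 25.5% of all genes.

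The count of called members in this contrast hung on the test and on single libraries. The DESeq2 test called 13 members (11.3% of all genes): Kcna6, Kcng1, Kcnip3 and Kcnn1 higher, and Kcna1, Kcna4, Kcnd2, Kcnh5, Kcnh7, Kcnj3, Kcnk2, Kcnq3 and Kcnt2 lower. Limma-trend called 0 (0.0828% or 0.142% of all genes with 0.1 or 1 added). With 1 library left out, edgeR called 16 of 80 members without SSDS-shACOT12 2, when it called 24.5% of all genes. The 16 include Kcne2, which is outside the 75 and had its highest counts in Control. It passed the filter of that fit through Control, so its call as lower was favoured in advance. edgeR called 4 of 78 without SSDS-GFP 3 (2.59%), 3 of 80 without SSDS-GFP 2 (2.98%) and 2 of 79 without SSDS-shACOT12 1 (1.74%). It called 0 with any of the other 8 left out. It called 17 of 91 with no filter (5.31%) and 3 of 67 with a filter of 50 counts in 3 libraries (2.65%). The 17 include Kcne2 and Kcnj13, which are outside the 75.

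Kcnj3, which pairs with other Kcnj subunits in the G-protein-gated channel, had 171, 149 and 179 CPM for Control, 139, 158 and 160.4 for CSDS, 122, 139 and 82.1 for SSDS-GFP and 78.3, 109 and 64.7 for SSDS-shACOT12. Both SSDS groups lay below Control, and CSDS overlapped it. The differences from Control were -0.98 ± 0.21 in SSDS-shACOT12 (SE, edgeR adjusted p = 0.0531), -0.54 ± 0.21 in SSDS-GFP (edgeR adjusted p = 0.246) and -0.12 ± 0.20 in CSDS (edgeR adjusted p = 0.975). Its channel partner Kcnj9 had 82.5, 108 and 101 CPM in Control and 125, 93.0 and 165 in SSDS-shACOT12, with overlap (0.39), and Kcnj6 26.2, 10.6 and 18.8 in SSDS-shACOT12, also with overlap (-0.39). Neither Kcnj9 nor Kcnj6 passed an unadjusted p under 0.05 in this contrast.

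Kcnq3 had 160.1, 137 and 84.9 CPM in SSDS-shACOT12, below all its Control values (-0.999 ± 0.24, SE, edgeR adjusted p = 0.0574). Kcnd2 had 174, 142 and 189 CPM in Control and 106, 99.7 and 48.7 in SSDS-shACOT12, without overlap (-0.99 ± 0.30, SE, edgeR adjusted p = 0.0883), the lowest of them SSDS-shACOT12 3. Of its Kcnip partners, Kcnip2 was at -0.00, Kcnip4 at -0.51 and Kcnip3 at 0.82 on the log2 scale, and with the GC trend described further on removed, at -0.20, -0.06 and 0.62.

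Kcnh7 had 56.2, 41.3 and 75.1 CPM in Control and 30.7, 26.9 and 8.05 in SSDS-shACOT12, without overlap and with the lowest value in SSDS-shACOT12 3 (-1.39 ± 0.40, SE, edgeR adjusted p = 0.0785, and -1.01 without that library). Kcnip3, which also acts as a calcium-dependent transcriptional repressor, had 73.5, 80.5 and 83.7 CPM and 99.1, 96.8 and 225, where SSDS-shACOT12 3 was the highest of all 12 libraries (0.82). Kcnk2 had 39.9, 38.0 and 23.7 CPM in SSDS-shACOT12, below all its Control values (-0.69 ± 0.19, SE, edgeR adjusted p = 0.0736). The spread within SSDS-shACOT12 was thus wide for several of the genes furthest from Control.

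Some members are known from cells other than neurons. Kcnj10, the inward rectifier of astrocytes, had 109.6 to 128 CPM in Control and 105 to 141 in the other 9 libraries, with differences of -0.05, 0.00 and 0.16 in CSDS, SSDS-GFP and SSDS-shACOT12. Kcnj8, a subunit of the ATP-sensitive channel of mural cells, had 3.50 to 5.50 and 3.74 to 6.06 CPM. The untested Kcne2 and Kcnj13, both known from choroid plexus, had 41, 12 and 2 counts and 13, 11 and 1 counts in the Control libraries, against 1 to 5 and 0 to 4 elsewhere. With no filter, edgeR called Kcne2 lower in SSDS-GFP (adjusted p = 0.00229) and SSDS-shACOT12 (adjusted p = 0.00182) and Kcnj13 lower in SSDS-shACOT12 (adjusted p = 0.00414). The 3 Control libraries stood in the same order for both genes and for the summed choroid plexus markers, and the part of that tissue in these counts was not tested.

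SSDS-shACOT12 against SSDS-GFP asks what the liver knockdown of ACOT12 adds under SSDS. Few members stood out: edgeR called 0 of the 75 and 0 of all genes (0%), and the DESeq2 test and limma-trend called 0 as well. At an unadjusted p under 0.05 there were 1 higher member (1.84% of all genes) and 1 lower (2.68%), 2.67% of the 75 against 4.53% of all genes. Without overlap, Kcnh2 lay higher (2.23% of all genes) and Kcnmb4 lower (2.58%), 2.67% of the members against 4.81% of all genes. The median difference was 0.02 over the members and 0.01 over all genes, and no alternative called a member.

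Kcnh2, the ether-a-go-go-related channel known from cardiac repolarization, had 18.8, 15.9 and 19.7 CPM for SSDS-GFP and 23.6, 20.5 and 27.1 for SSDS-shACOT12 (0.39 ± 0.15, SE, edgeR adjusted p = 0.802). Kcnj3 was at -0.44 ± 0.21 (edgeR adjusted p = 0.802), with SSDS-GFP 3 inside the range of SSDS-shACOT12. Kcnh4 was at 0.88 ± 0.43, Kcnd2 at -0.57 ± 0.30 and Kcnmb4, a beta subunit of Kcnma1, at -0.37 ± 0.19 (SE). Without SSDS-GFP 3, Kcnh4 was at 1.47. Without SSDS-shACOT12 3, Kcnd2 was at -0.29, and without SSDS-GFP 1, Kcnmb4 was at -0.18. Kcnip3 was at 0.56 ± 0.27, and at 0.04 without SSDS-shACOT12 3. Kcnc1, a fast delayed rectifier of interneurons, was at 0.23, and at 0.11 without SSDS-shACOT12 3. Kcnj3 was at -0.28 without SSDS-GFP 2 or SSDS-shACOT12 3, and at -0.69 without SSDS-shACOT12 2.

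**Figure D3:**
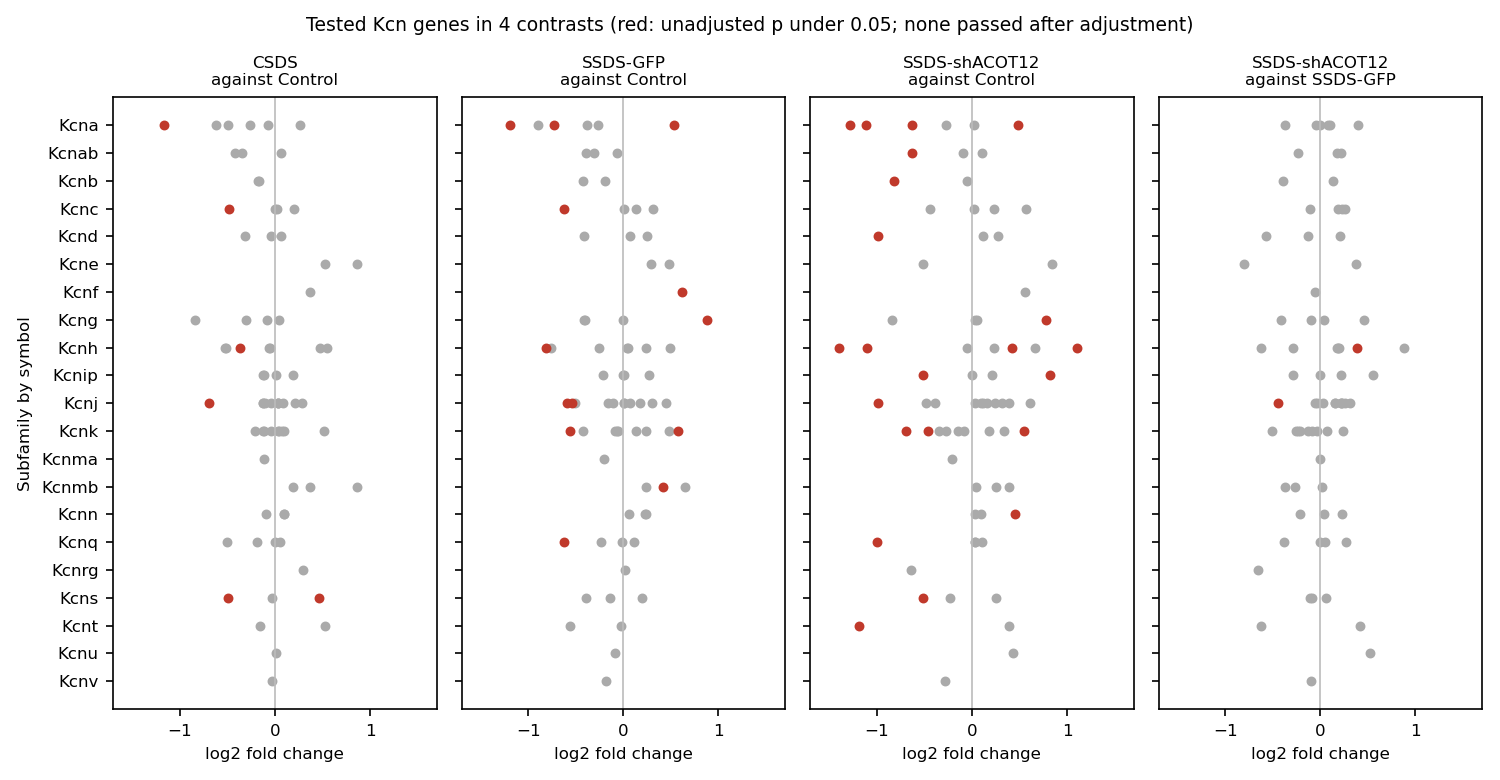
Log2 fold change of the 75 tested Kcn genes by subfamily in 4 contrasts, with genes at an unadjusted p under 0.05 in red. The 3 contrasts on the left share their Control libraries; Kcna1 is the lowest point of the Kcna line in CSDS and SSDS-GFP, and the right panel holds 2 red points.

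Tested over the 4 groups at once, edgeR called 0 of the 75 members and 15 of all genes (0.0887%). At an unadjusted p under 0.05 there were 15 members, 20% against 14.4% of all genes, and the smallest adjusted p was that of Kcna1, 0.148. The DESeq2 likelihood ratio test called 7 members (5.29% of all genes): Kcna1, Kcna4, Kcna6, Kcng1, Kcnj3, Kcnk2 and Kcnq3. Limma-trend called 0 (0.0828% or 0.0769% of all genes). edgeR called 7 of 80 members without SSDS-shACOT12 2 (12.6%) and 15 of 91 with no filter (4.45%). Kcne2 is among the 7, and Kcne2 and Kcnj13 are among the 15, both outside the 75.

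By class, the fold changes were mixed. In SSDS-shACOT12 against Control, 14 of 26 Kv pore subunits were higher and 12 lower, with 3 and 8 at an unadjusted p under 0.05 (13.6% and 10.7% of all genes). Inward rectifiers were higher in 8 of 11, tandem-pore channels in 3 of 9 and silent subunits in 5 of 9. Auxiliary subunits were higher in 7 of 13 and calcium- or sodium-activated channels, with Kcnu1 grouped among them, in 5 of 7. In CSDS, 8 of 26 Kv pore subunits were higher and 18 lower, with 0 and 3 at an unadjusted p under 0.05 (2.86% and 3.01% of all genes). The classes were not tested as wholes.

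The split of higher and lower members moved with the GC content of their transcripts. Transcript GC had a median of 53.3% over the 75 members (36.6% to 69.4%) and 49.9% over all genes tested. In SSDS-shACOT12 against Control, the 38 members at or under that GC had a median difference of -0.37, with 11 higher and 27 lower, and the 37 above it 0.18, with 31 higher and 6 lower. Over all genes tested, split at the same GC, the medians were -0.11 and 0.24. In SSDS-GFP against Control the members' medians were -0.21 and 0.04, in CSDS -0.12 and 0.04, and in SSDS-shACOT12 against SSDS-GFP -0.11 and 0.19.

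Among the genes named above, Kcnj3 (43.9% GC), Kcnq3 (44.4%), Kcnd2 (44.4%), Kcnh7 (39.6%), Kcnt2 (36.6%) and Kcna4 (44.8%) are low and Kcng1 (57.6%), Kcnh2 (61.3%), Kcnh4 (60%) and Kcnn1 (57.0%) high. Kcna1 lies between, at 50.1%. By library, the high-GC members had their largest median levels, centred on the mean of the 12 libraries in log2 CPM, in SSDS-shACOT12 1 (0.30), SSDS-GFP 3 (0.26) and SSDS-shACOT12 3 (0.16). These are the 3 libraries that stood apart.

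With each library's trend on GC removed, an alternative chosen after seeing the data, edgeR called Kcna1 in SSDS-GFP against Control (-1.20, adjusted p = 0.0442; 0.941% of all genes) and 3 members, Kcna1 and Kcnj3 among them, in SSDS-shACOT12 against Control (2.47% of all genes), where Kcna1 was at -1.15 (edgeR adjusted p = 0.0394). It called 0 members in CSDS against Control and in SSDS-shACOT12 against SSDS-GFP. With the replicate number also as a block, it called 0 members in every contrast. Of all genes it then called 0.225% in SSDS-GFP and 0.107% in SSDS-shACOT12 against Control. With the GC trend removed and no block, 4 members were higher and 13 lower at an unadjusted p under 0.05 in SSDS-shACOT12. In SSDS-GFP, 3 were higher and 10 lower. Without the GC correction these numbers were 7 and 15 in SSDS-shACOT12 and 5 and 8 in SSDS-GFP. With the trend removed and no block, 22.7% and 20.1% of all genes were at such a p in SSDS-shACOT12 and SSDS-GFP. That is as large a share as among the members or larger. Kcna1 in CSDS was at -1.16 with the trend removed, and its differences in the 3 contrasts stood at -1.17, -1.19 and -1.11 without. Other members moved further in SSDS-shACOT12 against Control: Kcnt2 went from -1.19 to -0.55, Kcnh7 from -1.39 to -0.92, Kcnip4 from -0.51 to -0.06, Kcna2 from -0.27 to -0.13, Kcnj9 from 0.39 to 0.15, Kcnh2 from 0.43 to 0.15 and Kcnn1 from 0.45 to 0.23. In SSDS-shACOT12 against SSDS-GFP, Kcnj3 went from -0.44 to -0.28 and Kcnh2 from 0.39 to 0.21.

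**Figure D4:**
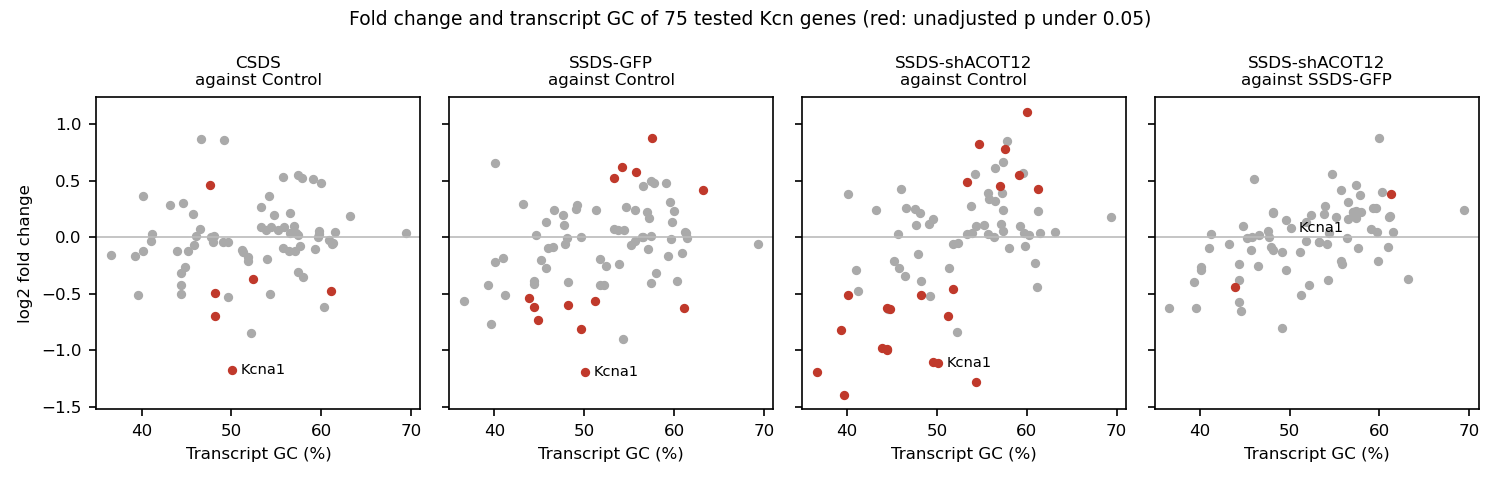
Log2 fold change against transcript GC (percent) for the 75 tested Kcn genes in 4 contrasts, with genes at an unadjusted p under 0.05 in red and Kcna1 named. In SSDS-shACOT12 against Control, 14 of the 15 red points below 0 lie at or under the median GC of 53.3%, and Kcna1 lies near the middle of the GC range. Over all genes tested, 1719 such lower genes lie at or under that GC and 81 above it.

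**Figure D5:**
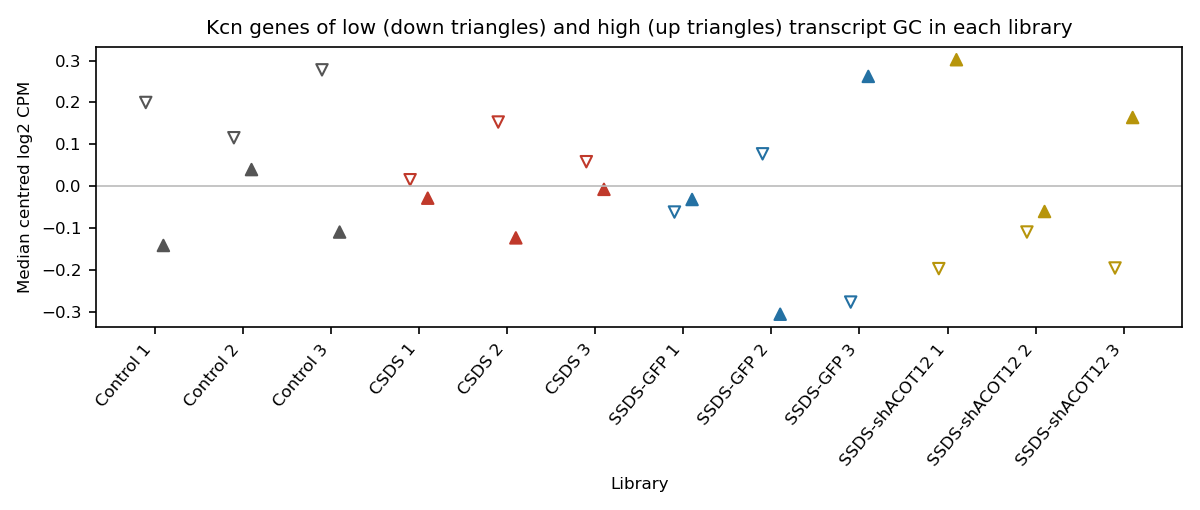
Median centred log2 CPM of the 38 tested Kcn genes of low transcript GC (open triangles pointing down) and the 37 of high GC (filled triangles pointing up) in each of the 12 libraries. The high-GC genes lie above the low-GC genes by most in SSDS-GFP 3, SSDS-shACOT12 1 and SSDS-shACOT12 3. They lie below them in all Control and all CSDS libraries and in SSDS-GFP 2.

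Proteins that bind these channels, or share their work at the membrane, formed a list of 21 genes, of which 20 were tested (Lrrc52 was not). edgeR called 0 of the 20 in every contrast. At an unadjusted p under 0.05 there was 1 higher and 2 lower in SSDS-shACOT12 against Control and 0 in the other 3 contrasts, where all genes stood at 24.2% in the first and 5.87%, 15.2% and 4.53% in CSDS, SSDS-GFP and SSDS-shACOT12 against SSDS-GFP. The 3 are described here. Lgi1, a secreted protein that binds the Kcna complex, had 207, 178 and 199 CPM in Control and 139, 144 and 149.6 in SSDS-shACOT12, without overlap (-0.43 ± 0.11, SE). Its receptor Adam22 had 206, 193 and 205 and 164, 174 and 165 CPM, also without overlap (-0.26 ± 0.11). Hcn3, a cation channel opened by hyperpolarization, had 8.42, 10.6 and 8.98 and 14.2, 11.7 and 20.4 (0.72 ± 0.27).

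None of the other partners passed an unadjusted p under 0.05. In CSDS, SSDS-GFP and SSDS-shACOT12 against Control in turn, Cntnap2, which clusters Kcna channels beside the node, was at -0.17, -0.22 and -0.44, and its partner Cntn2 at -0.04, 0.06 and 0.08. The scaffolds Dlg1, Dlg2 and Dlg4 ranged from -0.22 (Dlg2 in SSDS-shACOT12) to 0.24 (Dlg1 in CSDS). The Kcnd partners Dpp6 and Dpp10 were at -0.03 and 0.56 in SSDS-shACOT12, the sulfonylurea receptors Abcc8 and Abcc9 at -0.27 and -0.54, and Amigo1, which binds Kcnb pores, at 0.00. Adam23 was at -0.16, the Kcnma1 partners Lrrc26, Lrrc38 and Lrrc55 at 0.36, 0.69 and 0.04, and the channels Hcn2 and Hcn4 at 0.32 and 0.98. The lowest log2 difference of the Kcna partners Cntnap2, Cntn2, Lgi1, Adam22 and Adam23 in these 3 contrasts was the -0.44 of Cntnap2.

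Genes with a pattern most like that of Kcna1 were found by the root mean squared difference of centred log2 CPM over the 12 libraries, a description with no test. Among Kcn genes these included Kcns2 (0.37), Kcnj6 (0.38), Kcnq3 (0.40) and Kcnh5 (0.42). Among other protein-coding genes they were Nr2c2 (0.21), Ndst1 (0.24), Garem1 (0.25), Cacng5 (0.25) and Stxbp5l (0.26). Nr2c2, an orphan nuclear receptor, had 35.6, 37.3 and 43.9 CPM in Control and 15.9 to 28.8 elsewhere, without overlap. Cacng5, an auxiliary subunit of AMPA receptors, had 14.5, 12.2 and 14.5 CPM in Control and 4.21 to 8.54 elsewhere, also without overlap. These 4 Kcn genes lay farther from Kcna1 than all 5 of the others. Only 75 of the 14407 tested protein-coding genes are Kcn genes, and a larger pool gives nearer genes. The distances therefore do not tell whether Kcn genes are less like Kcna1.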

How the data were processed

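The deposited counts are raw whole numbers of reads per gene for 12 ventral hippocampus libraries. The authors scaled the deposited FPKM to gene length and library size, and gene length is given in bases per the file headers. Per the submitters' processing notes, HISAT2 2.0.5, featureCounts 1.5.0-p3, DESeq2 and mm10 were used. Libraries came from 1 µg of total RNA with a NEBNext Ultra RNA kit per the labels' protocols. The strand setting, annotation release and filters are not given in the sources used here, so overlapping and antisense genes cannot be told apart.

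Low counts were removed with edgeR's filterByExpr (a count of 10 and a total of 15 as minimum; edgeR 4.0.16, R 4.3.3). The 16915 genes kept were scaled by TMM and fitted over all 12 libraries in 1 quasi-likelihood model of group alone, tested 2-sided in 4 contrasts and over the 4 groups, with Benjamini-Hochberg adjusted p under 0.05 over all genes tested. CPM are on the TMM-scaled library. Errors of differences are standard errors from the model and other errors SD over 3 libraries. Alternatives were DESeq2 1.42.0, its size factors, other filters, only the groups compared, the replicate number as a block, limma 3.58.1 on log2 FPKM with 0.1 or 1 added, and each library left out. The GC correction (lowess, span 0.3, GC of the longest protein-coding GENCODE transcript), the block among the SSDS libraries alone and leaving out the 3 libraries apart were chosen after seeing the data. The fit was also run on simulated data, with a result not reported here.

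The members, gene lists and alternatives were chosen with earlier results of these data known. Named were Kcna1, the 8 members of smallest p in each contrast, the leading member of each subfamily by FPKM, the 5 Kcn and 5 other genes most like Kcna1, the partner list, and members without a test, though some genes under this rule are not reported here. Kcna5, Kcna3, Kcnj9, Kcnj10, Kcnj8, Kcnh5, Kcnn1, Kcnt2 and Kcnip4 were named after their values were seen, to complete a subfamily, complex or count.

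Between SSDS-GFP and SSDS-shACOT12, libraries with equal replicate numbers deviated together from their group means (correlations of 0.196, 0.419 and 0.353, each above 0.1), and a paired fit was run as well; the labels do not say what a number shares. In the other contrasts the correlations ran from -0.259 to 0.0474.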

Additional observations from a re-analysis of the deposited data

How the results depend on the processing

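The direction of the Kcna1 difference from Control and the absence of a called member between SSDS-shACOT12 and SSDS-GFP held in all alternatives run. The DESeq2 test called 1, 4, 13 and 7 members (CSDS, SSDS-GFP and SSDS-shACOT12 against Control, and the 4 groups at once), with 0.0355%, 3.61%, 11.3% and 5.29% of all genes. edgeR with no filter called 1, 7, 17 and 15 of 91 members (0.403%, 1.85%, 5.31% and 4.45%). Without the 3 libraries apart it called 1, 1, 10 and 6 (0.167%, 1.21%, 4.1% and 2.65%). In every value without these libraries, SSDS-shACOT12 is 1 library, assumed to vary as the other groups do, and SSDS-GFP is 2. In CSDS, the 6 libraries alone gave 1 (0.515%). In SSDS-shACOT12, a filter of 50 counts in 3 libraries gave 3 (2.65%). Removing the GC trend gave 3 in SSDS-shACOT12 (2.47%) and 1 in SSDS-GFP (0.941%), and with the replicate block too 0 in both (0.107% and 0.225%). With each library left out, the ranges were 0 to 0, 0 to 1, 0 to 16 and 0 to 7. The highest were all without SSDS-shACOT12 2 (0.642%, 24.5% and 12.6% of all genes for the 1, 16 and 7). The 16 and the 7 include Kcne2, as do the 7, 17 and 15 with no filter.

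For Kcna1 in CSDS, edgeR or DESeq2 called log2 differences of -1.17 (DESeq2), -1.18 (no filter), -1.17 (6 libraries alone) and -1.17 (without the libraries apart). In SSDS-GFP these were -1.20 (DESeq2), -1.20 (no filter), -1.20 (GC trend removed) and -1.04 (without the libraries apart), and in SSDS-shACOT12 -1.12, -1.13, -1.15 and -1.27, and -1.13 with the stricter filter. Over the 4 groups, adjusted p was 8.95e-05 (DESeq2), 5.27e-10 (edgeR, no filter) and 0.0133 (edgeR without the libraries apart). With each library left out, Kcna1 ranged from -1.31 to -0.94 in CSDS, -1.41 to -0.97 in SSDS-GFP and -1.30 to -0.89 in SSDS-shACOT12, and its edgeR adjusted p over the 4 groups from 0.0229 to 0.459.

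Between SSDS-shACOT12 and SSDS-GFP, Kcna1 changed sign without SSDS-GFP 3 (-0.07), without SSDS-shACOT12 1 (-0.11; range -0.11 to 0.30) and without the libraries apart (-0.23). The members' median moved to -0.0723 (GC trend removed), -0.0754 (with the block too) and -0.15 (without the libraries apart) in SSDS-GFP, and to -0.13, -0.13 and -0.0695 in SSDS-shACOT12. With a library left out it ran from -0.0684 to 0.00131 in CSDS, -0.15 to -0.0086 in SSDS-GFP and -0.11 to 0.0574 in SSDS-shACOT12. The replicate number as a block gave 0 called members in every contrast, as the group fit did, and for Kcnj3 between the SSDS groups paired alone a difference of -0.44 (edgeR adjusted p = 0.507). The cause of these changes was not tested. Counts below about 10 a library limit the untested members.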

Other observations

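Some members share sequence with another gene, and the deposited counts do not say which strand was read. Kcnq1, a pore subunit, had a median of 7.5 counts, and Kcnq1ot1, the long antisense RNA of its imprinted locus, 276. Kcnj13 had a median of 0.5 counts and overlaps Gigyf2, which had 1070.0. Kcnh3 (1436) overlaps Mcrs1 (997) on the other strand, Kcnmb4 (157) overlaps Kcnmb4os2 (65.5), and Kcnk3 (158) overlaps Gm9899 (107). Kcnk2 (689) holds the pseudogene Pdcd5-ps (295) on its own strand. The members Kcnip1 (240) and Kcnmb1 (18) overlap each other on opposite strands. Kcna1 has no overlapping gene in the annotation used.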
